A study of Homo sapiens with 8 samples.

Results

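Heterogeneous nuclear ribonucleoproteins (hnRNPs) and SR proteins are the abundant nuclear proteins that bind pre-mRNA and set which splice sites are used. SR proteins carry RNA recognition motifs and a tail rich in arginine and serine, bind exonic enhancers and recruit the spliceosome, whereas hnRNPs coat introns and exons and often act against SR proteins at the same exon. Many members of both families hold their own level by splicing a premature stop codon into their own mRNA, which nonsense-mediated decay then removes. The data here are ribosome footprints on the mRNAs of 36 such genes, 24 hnRNP genes (with SYNCRIP, PTBP1, PCBP1 and PCBP2) and 12 SR genes (10 SRSF genes, TRA2A and TRA2B), out of 12235 genes listed in at least 1 library. The members were chosen by name, and the group was selected on the log2 ratios of these same libraries, so those ratios are a description and no test is given for them.

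Ribosome profiling sequences the mRNA fragments that ribosomes protect from nuclease, and was done in HEK293T cells, an established embryonic kidney line immortalised with the SV40 large T antigen. The 8 libraries came from 4 media, which held all amino acids (Suff) or were without arginine (Arg-), without leucine (Leu-) or without methionine (Met-) over night, each collected with a short cycloheximide pretreatment (CHX) and again with none (no CHX). All media, the sufficient one included, were made from the same custom DMEM with dialyzed serum and differed in which amino acids were added back. Cycloheximide arrests elongating ribosomes, so that without it ribosomes can run on while cells are collected. Each condition has 1 library, so no value has a replicate error and a difference between libraries is not shown to be a difference between conditions. Footprints were not set against mRNA amount, so more mRNA and more ribosomes per mRNA cannot be told apart, and RPKM, a read number divided by coding length and library size, shows shares of a library and not amounts per cell.

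The libraries held 538222 (Met- CHX) to 6434043 (Leu- CHX) reads on coding sequences. Genes are listed only above a minimum of 64 reads with CHX and 5 reads without, so a gene that is not listed is not at 0. Of the markers of this line, VIM and NEFM were listed in 8 of 8 libraries, LIN28B in 7, KRT18 in 6, KRT8 in 4 and PAX2 in 2, and ALB, PTPRC, CD3E and HBB, which mark other cell types, in none. COL1A1, a fibroblast gene, was listed in 5 libraries at 1.59 to 20.2 RPKM. Over 1795 genes listed in all libraries, the rank correlation of levels with Suff no CHX was 0.856 for Suff CHX, below the 0.92 of Arg- CHX and the 0.925 of Leu- CHX. The Met- CHX library correlated at 0.706 to 0.817 with each of the other 7. All ratios with CHX are taken against the Suff CHX library, which stood apart for the hnRNP mRNAs themselves. In sufficient medium hnRNP levels were lower with CHX than without by a median log2 difference of -1.67, with 17 of 22 at least 2-fold lower, where 14.4% of all genes were, against -0.60 for the SR mRNAs, with 3 of 12 at least 2-fold lower, and 0.23 for all genes. Several members used another transcript in each series, but over the 10 hnRNP mRNAs with the same transcript in both the median was also -1.67, with 8 at least 2-fold lower. The hnRNP medians of the same difference were -0.32 in Arg-, -0.70 in Leu- and -0.74 in Met-, beside 0.08, 0.09 and 0.74 for all genes.

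Some footprints were assigned to transcripts of SR genes that the annotation marks as targets of nonsense-mediated decay. Their coding sequences end in a stretch that is not in the coding sequence of the standard (MANE) transcript, and 4 such stretches are shown because they are where these isoforms differ. Capitals mark the stop codon. The sequences are from GRCh38 with GENCODE release 44, in coding orientation, and lie at chr20:43459153-43459304 (+) in SRSF6, chr2:38749319-38749346 (-) in SRSF7, chr7:23522289-23522432 (-) in TRA2A and chr3:185931772-185931852 (-) in TRA2B.
SRSF6: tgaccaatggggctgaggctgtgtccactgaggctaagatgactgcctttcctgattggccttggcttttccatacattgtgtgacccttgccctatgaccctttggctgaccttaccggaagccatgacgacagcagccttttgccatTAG
SRSF7: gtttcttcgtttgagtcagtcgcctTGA
TRA2A: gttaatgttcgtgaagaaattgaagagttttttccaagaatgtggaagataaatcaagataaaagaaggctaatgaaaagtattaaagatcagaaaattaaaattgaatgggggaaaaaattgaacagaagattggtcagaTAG
TRA2B: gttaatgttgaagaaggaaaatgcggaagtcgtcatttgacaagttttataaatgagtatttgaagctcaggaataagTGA

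These transcripts were listed with CHX and in no library without it, where each member had a single listed transcript. That holds for nearly all genes there, with 10871 transcripts for 10871 genes in Met- without CHX, against 9300 for 8906 in Leu- CHX. The absence of these isoforms without CHX is therefore not read as a difference between the series. The HNRNPDL transcript listed without CHX carries the same annotation but has no coding bases of its own. The SRSF6 isoform was at 73.4 RPKM in Arg- CHX (149 reads) and 64.9 in Leu- CHX (169 reads). It was not listed in Suff CHX, where the minimum of 64 reads corresponds to 61.7 RPKM, so no difference from sufficient medium can be read from it. The TRA2B isoform was listed in Leu- CHX alone, at 204.5 RPKM (150 reads), under the 219.3 RPKM that the read minimum sets in Suff CHX. The TRA2A isoform was at 79.4 RPKM in Arg- CHX and 65.0 in Leu- CHX, close to the minimum in both. For SRSF7 the decay-annotated transcript was the highest one with CHX, at 448.6 RPKM in Suff, 394.3 in Arg- and 1257 in Leu-, while the protein-coding transcript reached 36.3 in Arg- and 60.3 in Leu- and was not listed in Suff. Its own stretch before the stop has 25 bases of 411, and the files give no read positions, so these footprints need not lie on it.

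Levels spanned a wide range within each family. Without CHX the hnRNP median level in sufficient medium was 483.9 RPKM and that of the SR mRNAs 311.1 RPKM, from HNRNPUL2 at 3.55 to HNRNPA2B1 at 2989 RPKM. Both families together were a small share of the summed RPKM, 1.27% for hnRNP and 0.557% for SR mRNAs in that library. HNRNPA2B1, which binds and sorts RNA and regulates splicing, was the highest hnRNP mRNA in all 4 libraries without CHX and ranked 82 of 11437 genes in Suff. SRSF3, the smallest SR protein, was the highest SR mRNA in the same 4 libraries and ranked 114 in Suff. Each member used 1 transcript throughout a series, but 18 members used another transcript with CHX than without, so further levels of a gene are compared within a series. HNRNPA1, HNRNPA3 and other members have near-identical processed copies in the genome, and with uniquely mapped reads their levels are uncertain.

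**Figure D1:**
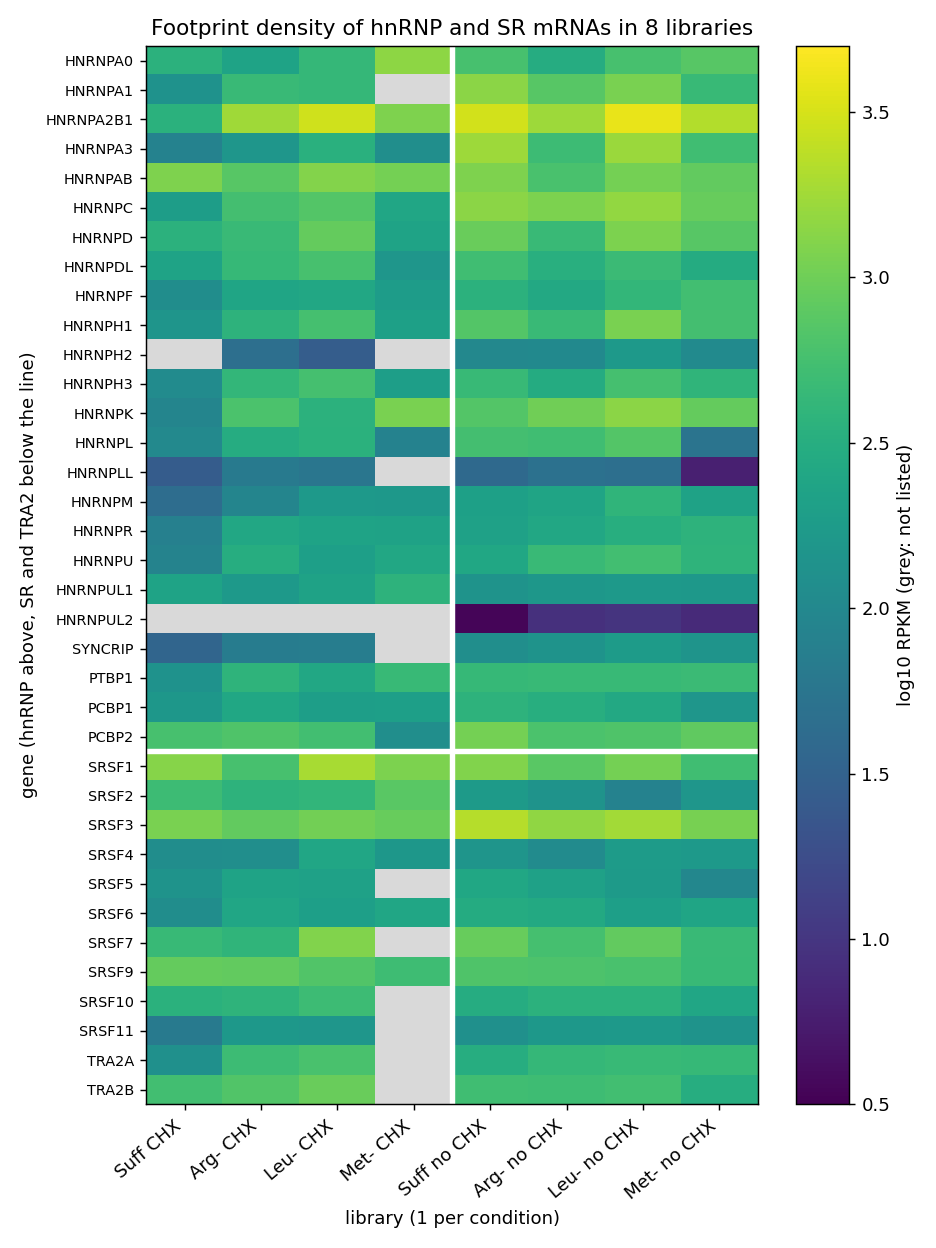
Levels of the 36 mRNAs (rows) in the 8 libraries (columns), as log10 RPKM of the highest transcript of each gene, with 24 hnRNP genes above the white line and 12 SR genes below it. Grey cells were not listed, most of them in Met- CHX, and the Suff CHX column is darker than Suff no CHX for most hnRNP mRNAs.

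In each of the highest hnRNP mRNAs without CHX, and in HNRNPD, the Suff and Leu- libraries lay above Arg- and Met-. HNRNPA2B1 was at 2989 RPKM in Suff, 1717 in Arg-, 3968 in Leu- and 2122 in Met-. HNRNPA3 was at 1684 RPKM in Suff, 489.8 in Arg-, 1653 in Leu- and 524.0 in Met-, the widest spread among them, with Arg- and Met- alike. HNRNPA1, the core hnRNP that blocks exon recognition, was at 1409 RPKM in Suff, 737.9 in Arg-, 1123 in Leu- and 450.8 in Met-. HNRNPC, which binds uridine tracts and guards against inclusion of intronic elements, was at 1402, 1155, 1513 and 896.9 RPKM in the same order. In HNRNPA1 and HNRNPC the lowest library was Met-, whereas in the next 2 genes it was Arg-. HNRNPAB was at 1197 RPKM in Suff, 608.4 in Arg-, 1084 in Leu- and 853.8 in Met-. HNRNPD, also called AUF1, which binds AU-rich elements and speeds mRNA decay, was at 943.3, 462.7, 1155 and 748.3 RPKM.

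Other hnRNP mRNAs took a different course. HNRNPK, a KH-domain protein that binds cytidine-rich RNA, was at 692.0 RPKM in Suff, 1006 in Arg-, 1403 in Leu- and 869.0 in Met-, and HNRNPU, a scaffold protein that binds RNA and chromatin, was at 257.2, 461.2, 542.4 and 381.7 RPKM. Both were lowest in sufficient medium. HNRNPR was also lowest in Suff, at 217.0 RPKM, with 260.6 in Arg-, 323.0 in Leu- and 370.8 in Met-. HNRNPF, which binds guanine-rich runs, was at 356.0 RPKM in Suff, 267.1 in Arg-, 420.8 in Leu- and 534.6 in Met-. PCBP2, the other poly(C)-binding type of hnRNP, was highest in Suff, at 1079 RPKM against 623.1 in Arg-, 660.2 in Leu- and 839.6 in Met-.

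Among SR mRNAs without CHX, SRSF3 was at 2238 RPKM in Suff, 1495 in Arg-, 1779 in Leu- and 1117 in Met-. SRSF1, the founding SR protein that promotes use of nearby 5′ splice sites, was at 1253, 752.0, 1078 and 517.9 RPKM, and SRSF7 at 910.2, 575.8, 841.4 and 464.7 RPKM. These 3 had the same order, Suff, Leu-, Arg- and Met-. SRSF9 was at 651.3 RPKM in Suff, 634.8 in Arg-, 610.9 in Leu- and 457.6 in Met-, a log2 ratio of Met- to Suff of -0.51 (-0.67 to -0.35). TRA2B, an activator of exons with GAA-rich enhancers, was at 522.0 RPKM in Suff, 504.1 in Arg-, 540.9 in Leu- and 314.4 in Met-. SRSF2 was low without CHX, at 176.9, 139.8, 83.3 and 152.2 RPKM.

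With CHX the same mRNAs read differently, first of all in Suff. HNRNPA2B1 was at 353.3 RPKM in Suff, 1737 in Arg-, 2976 in Leu- and 1200 in Met-. HNRNPK was at 90.1, 617.6, 357.2 and 1147 RPKM, and HNRNPU at 84.2, 307.3, 204.3 and 262.8 RPKM. For all 3 the Suff library was the lowest of the 4. HNRNPA3 was at 83.8 RPKM in Suff, 151.2 in Arg-, 337.3 in Leu- and 121.8 in Met-, and HNRNPC at 190.2, 550.6, 694.7 and 247.3 RPKM. HNRNPA1 was at 134.7 RPKM in Suff, 463.0 in Arg- and 425.8 in Leu- and was not listed in Met-. HNRNPR was at 78.1, 265.8, 230.2 and 222.3 RPKM, and HNRNPF at 116.1, 241.8, 259.3 and 185.1 RPKM. In these 5 genes, too, Suff was the lowest of the libraries that listed them. HNRNPAB did not share this pattern, since it was lowest in Arg- CHX at 734.4 RPKM, with 1267 in Leu-, 1074 in Met- and a Suff level between the latter. HNRNPD was at 356.5, 467.4, 878.7 and 230.3 RPKM, and PCBP2 at 582.6, 656.6, 542.4 and 122.0 RPKM.

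The SR mRNAs were less low in Suff CHX. SRSF1 was at 1321 RPKM in Suff, 587.2 in Arg-, 1905 in Leu- and 1177 in Met-, and SRSF3 at 1130, 864.9, 1049 and 902.6 RPKM. SRSF9 was at 879.5, 846.5, 673.5 and 504.4 RPKM, and SRSF2 at 494.9, 372.4, 401.8 and 751.0 RPKM. In these 4 genes Suff lay above Arg-. Higher in Arg- CHX than in Suff CHX were 7 of 12 SR mRNAs, beside 41.0% of all genes. Among the 7 were TRA2A with a log2 ratio of 1.96, SRSF11 with 1.30 and SRSF6 with 1.10. TRA2B was at 539.8 RPKM in Suff, 678.9 in Arg- and 937.2 in Leu-, and was not listed in Met-.

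Against Suff, the ratio log2((RPKM + 1)/(RPKM in Suff + 1)) was taken for genes listed in both libraries with a mean of at least 10 RPKM. Such a ratio existed for 34 members in Arg- and in Leu- with CHX, 25 in Met- with CHX and 35 in each starvation without CHX. HNRNPUL2 had none, being unlisted with CHX and at 3.55 to 9.53 RPKM without. HNRNPH2 was not listed in Suff CHX. Where an interval follows a ratio, it is the exact (Clopper-Pearson) 95% interval of the recovered read counts, which covers counting error alone and takes PCR copies as separate reads.

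Under methionine deprivation without CHX, HNRNPL and HNRNPLL, paralogs that bind CA-rich RNA, were far lower than in any other medium. HNRNPL (ENSG00000104824, chromosome 19, 38836370 to 38852347, GRCh38) was at 558.9 RPKM in Suff, 521.9 in Arg-, 700.9 in Leu- and 53.8 in Met-, on 3106, 1488, 1857 and 124 reads. Its log2 ratio of Met- to Suff was -3.35 (-3.65 to -3.12), a 10.2-fold difference and the second lowest of 7884 genes. Against the other starved libraries it was as low, with a log2 ratio of Met- to Leu- of -3.68, the lowest of 8102 genes, and of Met- to Arg- of -3.25. HNRNPLL (ENSG00000143889, chromosome 2, 38561969 to 38603586) was at 38.7 RPKM in Suff, 49.9 in Arg-, 47.2 in Leu- and 6.13 in Met-, the last on 13 reads. Its ratio to Suff was -2.48 (-3.59 to -1.85), rank 9 from the lowest.

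With CHX, HNRNPL was at 101.5 RPKM in Suff, 304.4 in Arg-, 347.9 in Leu- and 83.1 in Met-, where it was the lowest listed hnRNP mRNA, on 79 reads. The Met- value was thus near that of Suff, with a log2 ratio of -0.29 (-0.65 to 0.06). It was well under the other starved libraries, with -1.86 against Arg- and -2.05 against Leu-. The medians over genes listed in both libraries, which leave out genes low in Met-, were 1.05 and 0.84. The low value of HNRNPL in Met- therefore appeared in both series against Arg- and Leu-, and against Suff in the series without CHX only, where the Suff CHX level was itself low. HNRNPLL was at 26.7 RPKM in Suff CHX, 65.6 in Arg- CHX and 56.6 in Leu- CHX, all under the 73.1 RPKM that the read minimum sets in Met- CHX, where it was not listed.

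**Figure D2:**
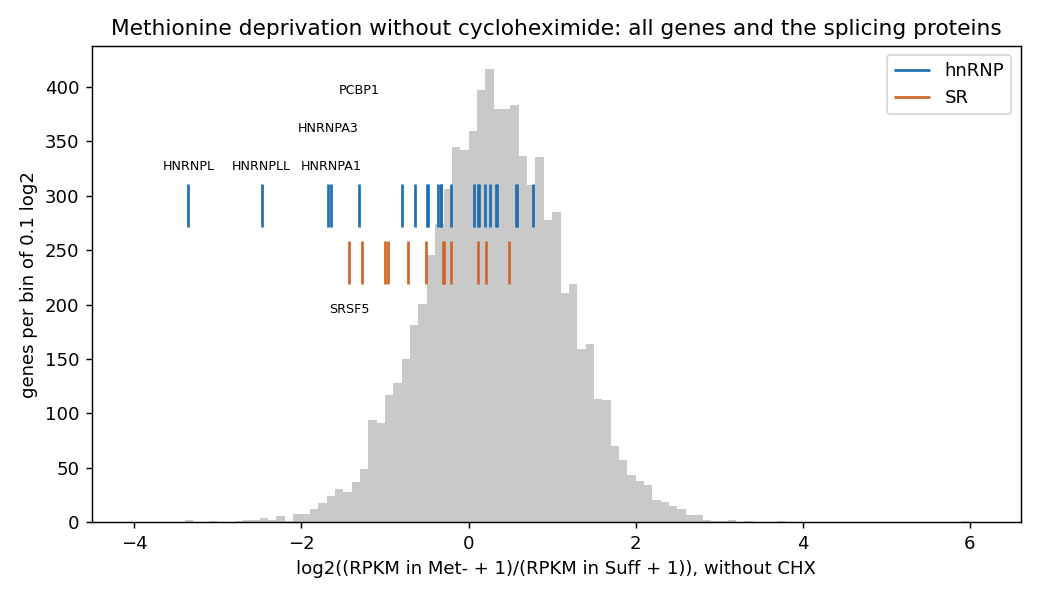
Distribution of log2 ratios of Met- to Suff without CHX over 7884 genes (grey, genes per bin of 0.1) with each hnRNP mRNA as a blue and each SR mRNA as an orange tick. HNRNPL at -3.35 and HNRNPLL at -2.48 lie in the far left tail, and most ticks lie left of the median of all genes, 0.32.

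Most other members lay below the middle of all genes in Met- without CHX, although 10 of 23 hnRNP and 3 of 12 SR mRNAs were higher than in Suff, beside 65.6% of all genes. The median ratio was -0.33 for 23 hnRNP and -0.41 for 12 SR mRNAs, against 0.32 for all genes, so that relative to all genes the families were at -0.64 and -0.72. Only 5 of 23 hnRNP and 1 of 12 SR mRNAs lay above the median of all genes. Over all genes this ratio rose with protein length, with a rank correlation of 0.436, and the families were not matched for length. At least 2-fold lower were 8 of 35 members, where 5.34% of all genes were. Beside HNRNPL and HNRNPLL these were HNRNPA3 at -1.68, HNRNPA1 at -1.64, SRSF5 at -1.43, PCBP1 at -1.31, SRSF1 at -1.27 and SRSF3 at -1.002. None was at least 2-fold higher, where 20.2% of all genes were. The highest ratios were 0.77 for HNRNPR (0.65 to 0.90) and 0.59 for HNRNPF (0.46 to 0.71), both under the upper quartile of all genes, 0.87.

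With CHX, Met- gave a mixed picture on the smallest library. HNRNPK went from 90.1 RPKM in Suff (321 reads) to 1147 in Met- (859 reads), a log2 ratio of 3.66 (3.48 to 3.86) and rank 14 from the highest of 1890 genes. PCBP2 went from 582.6 RPKM (1499 reads) to 122.0 (66 reads), a ratio of -2.25 (-2.63 to -1.90), and was also lower in Met- than in Arg- (-2.42) and Leu- (-2.14) with CHX. Without CHX neither stood out, at 0.33 for HNRNPK and -0.36 for PCBP2. The medians of hnRNP and SR mRNAs were 0.67 and 0.14, beside 0.89 over the 1890 genes with a ratio. Genes low in Met- CHX fall under its read minimum, which raises that value, so it gives no comparison with all genes. With unlisted genes counted as 0 the family medians were 0.51 and -3.42, beside -4.84 for all genes. Of 25 members with a ratio, 8 were at least 2-fold higher, where 46.7% of the 1890 genes were, and 1 was at least 2-fold lower, where 9.79% were.

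These Met- CHX ratios leave out 9 members that were listed in Suff CHX but not in Met- CHX, 3 hnRNP (HNRNPA1, HNRNPLL, SYNCRIP) and 6 SR mRNAs (SRSF5, SRSF7, SRSF10, SRSF11, TRA2A, TRA2B). At the read minimum of Met- CHX their levels can only be bounded. TRA2B, at 539.8 RPKM in Suff, was at least 3.92-fold lower, SRSF10 at least 1.63-fold, SRSF7 at least 1.55-fold and HNRNPA1 at least 1.09-fold lower. The other 5 were under the Met- minimum in Suff as well and give no bound. Counted with these bounds, 2 of 34 members were at least 2-fold lower, PCBP2 and TRA2B, where 6.75% of 5097 genes were.

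Under leucine deprivation HNRNPK (chromosome 9, 83968083 to 83980631) and HNRNPU (chromosome 1, 244840638 to 244864560) were the 2 members at least 2-fold higher than Suff in both series. HNRNPK had log2 ratios of 1.98 (1.82 to 2.16) with CHX and 1.02 (0.95 to 1.09) without. HNRNPU had 1.27 (1.15 to 1.42) with CHX and 1.07 without, where its read counts could not be recovered. Of all genes, 2.09% were at least 2-fold higher in both series, and 1.31% at least 2-fold lower, which no member was. Both ratios without CHX sat at the threshold, and with ratios centred on the median of all genes 0 members were at least 2-fold higher in that series.

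Without CHX, Leu- was otherwise near Suff. The median ratio was 0.28 for hnRNP and -0.10 for SR mRNAs, beside 0.14 for all genes, and 17 of 23 hnRNP and 5 of 12 SR mRNAs were higher than in Suff, beside 61.0% of all genes. HNRNPM had 0.91 and HNRNPH1 0.71. HNRNPK and HNRNPU were the 2 of 35 members at least 2-fold higher, where 6.85% of all genes were. SRSF2, an SR protein that marks exons for inclusion, was the 1 member at least 2-fold lower, at -1.08 (-1.45 to -0.74) on 370 and 83 reads, where 2.06% of all genes were. PCBP2 followed at -0.71 (-0.81 to -0.61). With CHX the hnRNP median was 1.34 and the SR median 0.70, beside 0.02 for all genes. At least 2-fold higher were 20 of 34 members, 16 of them hnRNP mRNAs, where 12.1% of all genes were, and none was at least 2-fold lower, where 7.28% were. HNRNPA2B1, at 353.3 RPKM in Suff (958 reads) and 2976 in Leu- (20278 reads), had a log2 ratio of 3.07 (2.98 to 3.17) and the second highest of 5208 genes. HNRNPH3 had 2.33 and HNRNPH1 1.94, while HNRNPUL1 was at -0.04. TRA2A was the highest SR mRNA at 2.27 (2.05 to 2.51), from 125.9 RPKM in Suff to 610.2 in Leu-.

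Under arginine deprivation both series disagreed on the hnRNP mRNAs. With CHX their median ratio was 1.16 and that of SR mRNAs 0.08, beside -0.23 for all genes. At least 2-fold higher were 15 of 34 members, 12 of them hnRNP mRNAs, where 16.6% of all genes were. At least 2-fold lower was 1 of 34, SRSF1, at -1.17 (-1.26 to -1.08), where 19.7% of all genes were. Without CHX the medians were -0.28 for hnRNP and -0.17 for SR mRNAs, beside -0.02 for all genes, and 14 of 23 hnRNP and 9 of 12 SR mRNAs were lower than in Suff, beside 51.4% of all genes. HNRNPA3 was lowest at -1.78 (-1.88 to -1.68), rank 33 from the lowest of 7448 genes, and HNRNPD followed at -1.03 (-1.14 to -0.91). These were the 2 of 35 members at least 2-fold lower, where 5.95% of all genes were. None was at least 2-fold higher, where 8.23% were, and the highest were HNRNPU at 0.84 and HNRNPK at 0.54 (0.46 to 0.62).

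**Figure D3:**
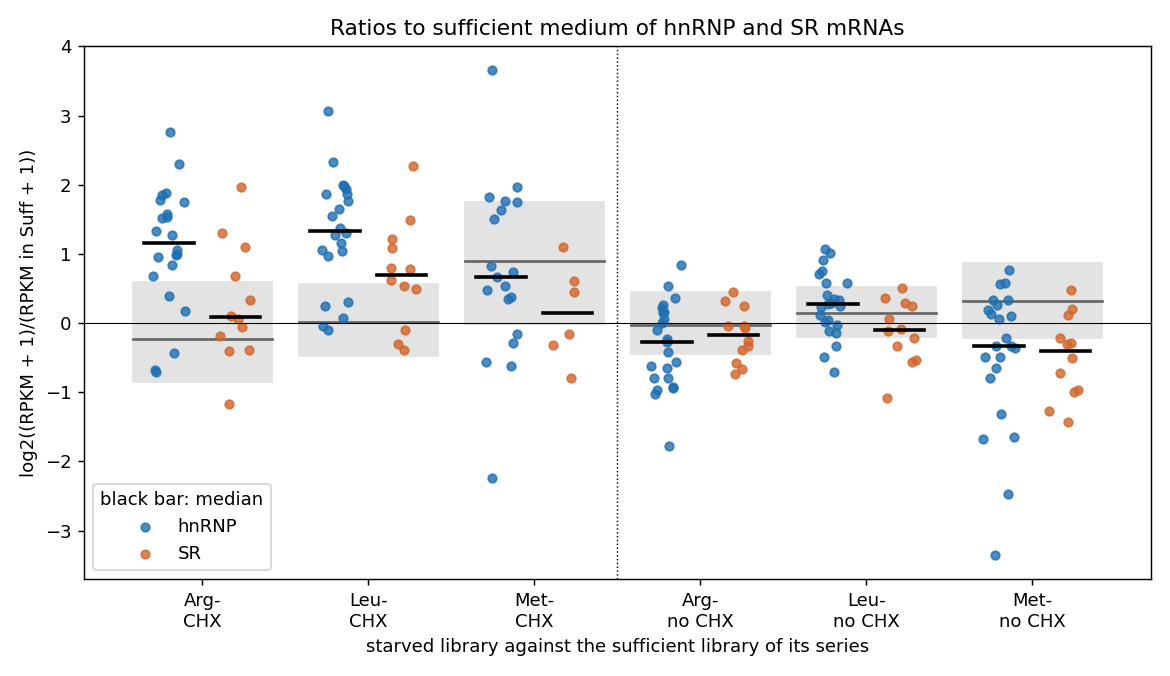
Log2 ratios of each hnRNP (blue) and SR (orange) mRNA to Suff in 6 comparisons, left of the dotted line with CHX and right of it without. Black bars are family medians, grey bars the median and grey boxes the quartiles of all genes. The hnRNP medians of 1.16 and 1.34 in Arg- and Leu- with CHX stand above the grey boxes, and without CHX all family medians lie between -0.41 and 0.28.

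In Arg- the direction of a member's ratio depended on the series more often than over all genes, and in Leu- and Met- about as often. In Arg-, 17 of 34 members had the same sign with and without CHX, and 16 were higher with CHX and lower without, while of 4765 genes 71.1% had the same sign and 15.9% were higher with CHX and lower without. In Leu- 24 of 34 members had the same sign, beside 71.2% of all genes, and in Met- 17 of 25, beside 70.5%. No member was at least 2-fold higher in both series in Arg- or in Met-, where 2.6% and 10.2% of all genes were, and none at least 2-fold lower, where 3.84% and 2.89% were. The 2 series have separate Suff libraries, and they differ in cycloheximide, in the read minimum and in the transcripts listed, so they are not replicates.

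**Figure D4:**
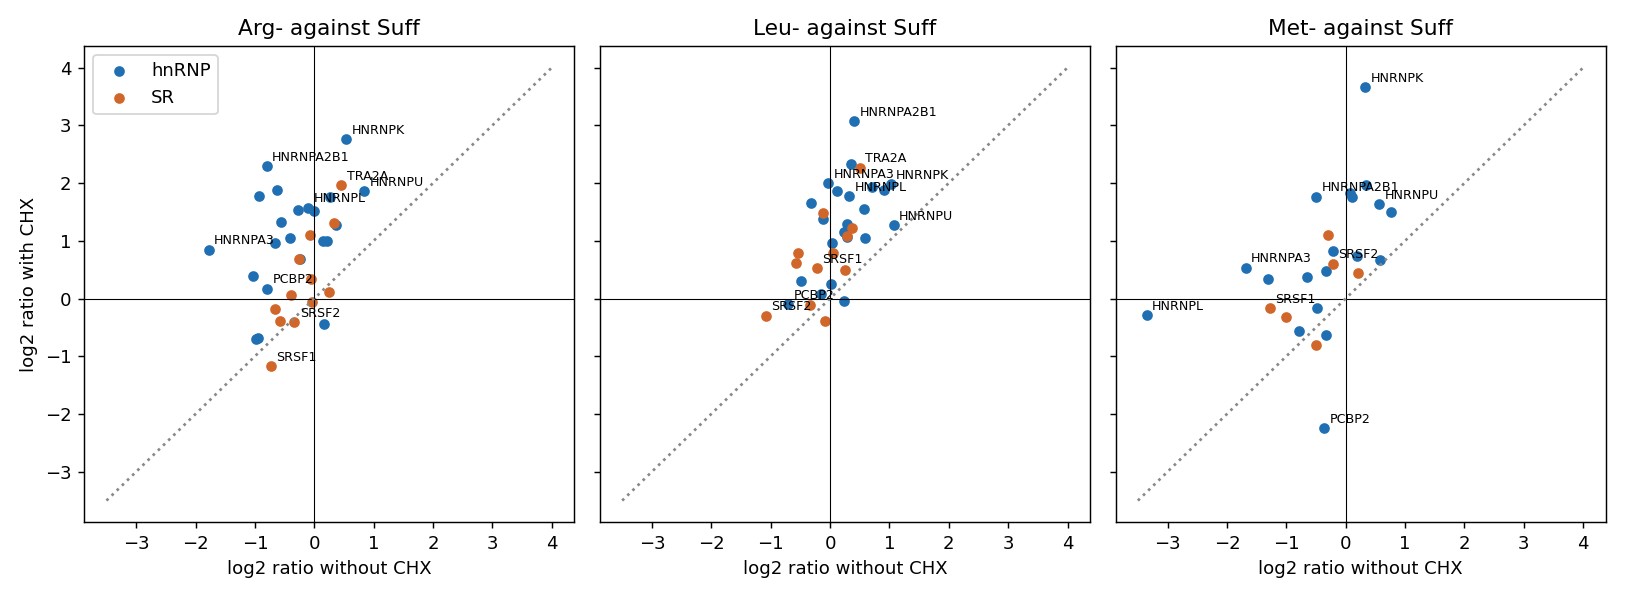
Log2 ratios to Suff of each member without CHX (horizontal) and with CHX (vertical) for Arg-, Leu- and Met-, hnRNP mRNAs in blue and SR mRNAs in orange, with equal ratios on the dotted line. In Arg-, 16 of 34 members lie in the upper left quadrant, and in Leu-, HNRNPK and HNRNPU lie beyond 1 on both axes.

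Ratios between starved libraries leave the Suff libraries out. Leu- over Arg- without CHX had a median of 0.54 for hnRNP mRNAs, with 21 of 23 higher in Leu- where 63.6% of all genes were, beside 0.05 for SR mRNAs and 0.15 for all genes. HNRNPA3 had the largest of these, 1.75, and HNRNPA2B1 had 1.21. With CHX the same ratio was 0.19 for hnRNP and 0.29 for SR mRNAs, beside 0.13 for all genes, and HNRNPA3 was again the highest hnRNP mRNA at 1.15. Without CHX, Met- over Leu- was below all genes for both families. Its medians were -0.63 for hnRNP and -0.48 for SR mRNAs, beside 0.15 for all genes. With CHX the medians were -0.48 over 19 hnRNP and -0.32 over 6 SR mRNAs, beside 0.84 over 2013 genes. The read minimum of Met- CHX leaves out genes low there and raises the last value, so it gives no comparison with all genes. Without CHX 18 of 23 hnRNP and 10 of 12 SR mRNAs were lower in Met- than in Leu-, as were 40.5% of all genes. Met- over Arg- without CHX had medians of 0.07 for hnRNP mRNAs, with 14 of 23 higher in Met-, and -0.36 for SR mRNAs, beside 0.29 for all genes, of which 68.1% were higher.

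SR proteins are named for their serine and arginine, and the coding sequences show it. Serine codons made up a median of 18.2% of SR, 7.46% of hnRNP and 7.61% of all coding sequences. Arginine codons made up a median of 20.3% of SR coding sequences, 6.75% of hnRNP coding sequences and 5.64% over 11475 genes. Adjacent arginine and serine codons numbered a median of 46 in SR and 4 in hnRNP genes, with 113 in SRSF4. In Arg-, the rank correlation (Spearman) of arginine share with the ratio to Suff was 0.155 without CHX over 35 members, beside 0.033 for all genes. With CHX it was -0.201 over 34 members, beside -0.137 for all genes, a description since the members share both libraries. Within families the correlation was -0.385 for SR and 0.204 for hnRNP mRNAs without CHX, and -0.238 and 0.36 with CHX. Shares came from the transcripts listed without CHX, and 18 members used another transcript with CHX. SR coding sequences are shorter, with a median of 267 codons against 434 for hnRNP genes and 480 for all genes. With ratios centred on all genes of the same coding length class, added after the data had been seen, the SR minus hnRNP difference of medians with CHX went from -1.08 to -0.39 in Arg-, from -0.64 to -0.32 in Leu- and from -0.53 to -0.02 in Met-. The Arg- SR median with CHX went from 0.08 to 0.71, and the hnRNP median there from 1.16 to 1.10.

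A cytidine followed by pyrimidines at the first bases of an mRNA marks the mRNAs whose translation follows mTORC1 most closely. RefSeq start sites (GRCh38.p14) were matched for 33 of 36 members, all but HNRNPA1, SRSF2 and TRA2A. A C followed by 4 bases that are each C or T stood at the start of 2 members, 6.06%, beside 6.24% of 15843 coding genes. The first 15 bases of these 2 are shown with the matched bases in capitals, at chr5:137754349-137754363 (-) and chr12:120469734-120469748 (-).
HNRNPA0: CTCTTtgtgtggtgc
SRSF9: CCCTTcgcttccgct
HNRNPA0, at 586.0 RPKM in Suff without CHX, was at 304.3 in Arg-, 589.5 in Leu- and 741.8 in Met-, and SRSF9 was close to Suff in Arg- and Leu- as given above.

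The rest of the splicing machinery did not move as a single group. The Sm and snRNP proteins, the core of the small nuclear ribonucleoproteins, were low in every starvation without CHX, with medians of -0.83, -0.40 and -0.71 in Arg-, Leu- and Met- over 11 measured genes. The SR medians in the same comparisons were -0.17, -0.10 and -0.41, and those of all genes -0.02, 0.14 and 0.32. Over all genes the ratio rose with protein length in each of them, with rank correlations of 0.359, 0.311 and 0.436. The lists compared here were not matched for length. Genes of the U2 particle and 3′ splice site recognition had medians of 0.30, 0.10 and -0.05 over 13 genes without CHX, and of 1.37 over 12 genes in Arg- with CHX, where hnRNP mRNAs were at 1.16. The tri-snRNP genes were at 0.31, -0.11 and 0.53 over 9 genes without CHX. The kinases that phosphorylate SR proteins (SRPK and CLK) were at 0.43, 0.06 and 0.89 over 5 genes without CHX, none at least 2-fold higher in Met-. Factors of nonsense-mediated decay, which removes the stop-containing isoforms of SR and hnRNP mRNAs, were at 0.58 and 0.42 over 7 genes in Arg- and Leu- and at 1.22 over 9 genes in Met- without CHX. In Met- 5 of 9 of them were at least 2-fold higher, where 20.2% of all genes were, and 0 were at least 2-fold lower. The import receptors and arginine methyltransferases of these proteins (TNPO1, TNPO3, PRMT1, PRMT5) were at 0.25, 0.48 and 0.44 without CHX, with the lowest of the 4 at -2.29 in Met-, and at 1.68, 1.05 and -0.46 with CHX, the last over 2 genes.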

How the data were processed

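RPKM per transcript was computed and deposited by the authors from adaptor-trimmed reads of 25 to 35 nt, after quality trimming (Trimmomatic) and perfect-match Bowtie alignment to GRCh38 transcripts (annotation release not given in the sources used here). Since they used uniquely mapping reads, those shared with copies elsewhere in the genome are lost where such copies are among the transcripts aligned to. Which copies these were is not known here. How reads shared by isoforms were assigned is not stated. Such reads were not all lost, since the HNRNPDL transcript without coding bases of its own held 2047 reads in Suff without CHX. Symbols, coding lengths and codon shares came from GENCODE 44 and matched 96.7% to 97.1% of transcripts. The highest transcript stood for a gene, and unlisted genes were not counted as 0. Read counts were recovered from whole steps of RPKM times coding length (tolerance 0.01), which 97.2% to 97.4% of values met. Ratios used a pseudocount of 1 and so understate changes of low genes. The members and lists were chosen with earlier results of these data known. Every member is named, and levels in all libraries are given for the 5 highest members of each family in Suff without CHX, the members 2-fold in both series, and the 2 highest and 2 lowest ratios of each starvation without CHX. With 1 library per condition there was no test. Scripts were tested on simulated data. Software was scipy 1.17.1, pandas 2.3.3 and numpy 2.4.6 under Python 3.11.15.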

Additional observations from a re-analysis of the deposited data

Results flagged for a closer look

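The following values had opposite signs with and without CHX, and each difference was not tested, since every condition has 1 library. In Arg- the hnRNP median was 1.16 with CHX and -0.28 without, a difference of 1.44, and the SR median was 0.08 and -0.17, a difference of 0.25. The SR minus hnRNP difference of medians in Arg- was -1.08 with CHX and 0.11 without, a difference of -1.19. In Leu- the SR median was 0.70 with CHX and -0.10 without, a difference of 0.80. In Met- the hnRNP median was 0.67 with CHX and -0.33 without, a difference of 0.99, and the SR median was 0.14 and -0.41, a difference of 0.54. All ratios with CHX share the Suff CHX library, in which 17 of 22 hnRNP mRNAs were at least 2-fold lower than in Suff without CHX, and 8 of the 10 with the same transcript in both series. Its part in these differences was not tested.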

How the results depend on the processing

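The 30 family medians, differences and counts were recomputed under 8 other settings. A median was called unchanged inside the 95% interval of the median over members, and a count within 1.5 times. For a difference of medians, the larger half-width of both families' intervals was used. Members of 1 library pair are not replicates. The intervals are also wide, -0.80 to 1.10 for SR mRNAs in Met- with CHX, so this criterion is weak. By it 226 of 240 values were unchanged. No median whose interval excluded 0 changed sign, medians whose interval included 0 could, and the cause of each of the other values was not tested. In Met- with CHX, counting unlisted genes as 0 gave an SR median of -3.42, while the median of all genes was lower still, at -4.84. The same setting gave in Met- with CHX an SR minus hnRNP difference of -3.93 and 10 members at least 2-fold lower. Centring on the median of all genes gave there an hnRNP median of -0.22, 2 members at least 2-fold higher and 8 lower, and in other comparisons 0 members lower in Arg- with CHX and 0 higher in Leu- without CHX. Centring within classes of coding length, chosen after seeing the data, gave an hnRNP median of -0.23, 2 members higher and 5 lower in Met- with CHX, 1 member lower in Arg- without CHX and 0 higher in Leu- without CHX, and it took the SR minus hnRNP difference with CHX to -0.39 in Arg-, -0.32 in Leu- and -0.02 in Met-. Without a filter on low values 1 member was at least 2-fold higher in Arg- without CHX. A pseudocount of 0.1, a minimum of 50 RPKM, 1 transcript for both libraries and summed transcripts moved none of the 30 values. No paired analysis was possible because each condition has 1 library. Depth limits Met- with CHX most, where members under 64 reads of 538222 are unlisted.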
